A study of Mus musculus with 2 samples.

Results

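Cxcl9, Cxcl10 and Cxcl16 are chemokines, and Cxcr3 and Cxcr6 are the receptors through which lymphocytes sense them. All 5 genes were found by their symbols among the 32285 genes measured, and their transcripts were followed through the macrophage subsets, the T cells and every other marker-defined cell type of 2 scRNA-seq libraries of the temporomandibular joint (TMJ). The first came from wild-type (WT) mice and the second from Prox1 mutant mice, which are heterozygous for Prox1 (Prox1+/-), the transcription factor that specifies lymphatic endothelium. No cell type to which the loss would be limited is stated. Both came from female C57BL/6 mice of 8 to 10 weeks whose TMJ had received complete Freund's adjuvant (CFA) by intra-articular injection, so every cell described here is from an arthritic joint and no untreated joint was included. The number of mice behind each library and the time between injection and collection are not given in the sources used here. With 1 library per genotype there is no replicate error, no test was made between genotypes, and each difference below compares these libraries.

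CXCL9 and CXCL10 are secreted chemokines that interferon-gamma induces in macrophages, endothelial cells and fibroblasts, and both bind CXCR3, a receptor carried by effector T cells, NK cells and plasmacytoid dendritic cells. CXCL16 is made as a protein anchored in the cell membrane, from which the proteases ADAM10 and ADAM17 can release it, and it binds CXCR6, a receptor of T cells that settle in tissues. In inflamed synovium both axes are known for guiding lymphocytes into the joint.

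Cxcl9 (ENSMUSG00000029417) and Cxcl10 (ENSMUSG00000034855) are neighbours on the minus strand of mouse chromosome 5. In GRCm38, Cxcl9 spans chr5:92321347-92328079 and Cxcl10 spans chr5:92346638-92348889, with 18558 bases between them. Any link of promoter sequence to the levels in these libraries was not tested. The 250 bases before each start are shown for both genes. They are taken from RefSeq on GRCm38.p6, run 5′ to 3′ on the gene's own strand, and cover chr5:92348890-92349139 for Cxcl10 and chr5:92328080-92328329 for Cxcl9. The capitals mark every match to 3 motifs searched on both strands, which were the interferon-stimulated response element (GAAA, then NN, then GAAA), the gamma-activated site (TTCNNNGAA) and the NF-kB site (GGG, then NNN, then TTCC).
Cxcl10: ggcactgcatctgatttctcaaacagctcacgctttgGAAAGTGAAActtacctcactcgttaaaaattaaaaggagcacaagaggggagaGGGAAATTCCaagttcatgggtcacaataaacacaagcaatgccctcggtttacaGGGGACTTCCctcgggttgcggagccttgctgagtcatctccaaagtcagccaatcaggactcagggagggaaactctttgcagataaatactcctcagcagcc
Cxcl9: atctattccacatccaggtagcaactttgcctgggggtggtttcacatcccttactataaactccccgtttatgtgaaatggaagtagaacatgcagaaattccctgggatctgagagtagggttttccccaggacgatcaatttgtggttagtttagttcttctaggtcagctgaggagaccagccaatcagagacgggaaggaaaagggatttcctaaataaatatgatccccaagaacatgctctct
Upstream of Cxcl10, the first run of capitals is a match to the response element, from 213 to 204 bases before the start. The other runs are NF-kB matches, from 159 to 150 and from 104 to 95 bases before the start. No match to the gamma-activated site was found there, and none of the 3 motifs matched in the Cxcl9 window, which says only that these exact letters are absent from it. Of 32851 promoter windows of the same length, 2.98% held the response element, 7.02% the gamma-activated site and 4.65% the NF-kB site, and 36 windows (0.110%) held both the response element and the NF-kB site. None of the motifs overlapped another in these windows, and a match is not evidence of binding. Neither Cxcr3 nor Cxcr6 had a match in its window.

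The other members lie apart. Cxcl16 (ENSMUSG00000018920) spans 70453983 to 70459984 on the minus strand of chromosome 11. Cxcr3 (ENSMUSG00000050232) spans 101731535 to 101734269 on the minus strand of chromosome X, and Cxcr6 (ENSMUSG00000048521) spans 123806475 to 123811760 on the plus strand of chromosome 9. Protein-coding genes overlap 3 of the 5 members on the opposite strand, namely Art3 at Cxcl10, Zmynd15 at Cxcl16 and Fyco1 at Cxcr6. Reads of these droplet libraries keep their strand, and Cell Ranger by default counts reads on a gene's own strand.

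After cells with fewer than 500 genes or at least 10% mitochondrial UMIs were removed, 4352 WT and 5757 mutant cells remained, with 48366846 and 54330221 UMIs and medians of 6997 and 4848 UMIs per cell. A UMI is a molecular tag that counts 1 captured transcript. Levels are given as CPM, the UMIs of a gene per 1000000 UMIs of the cells named, with an exact Poisson 95% interval, and percentages of cells with Clopper-Pearson intervals. These intervals cover counting error only. Prox1 itself had 563 UMIs (11.6 CPM) in the WT library and 315 (5.80 CPM) in the mutant library. These levels are over all kept cells, of which endothelial cells made up 23.8% in WT and 9.07% in the mutant. The part of cell make-up in the Prox1 levels was not tested. The libraries shared 10 barcodes, 4 of them among the kept cells. Clusters holding 583 WT and 1744 mutant cells could not be named from markers, so cells of any type may be missing from the named classes more often in the mutant library. The 5 genes were left out of the features used for clustering.

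Transcripts of the ligands were abundant and those of the receptors were sparse. Cxcl9 had 9281 UMIs in 585 WT cells and 18251 UMIs in 1424 mutant cells. Cxcl10 had 4561 UMIs in 507 WT cells and 6978 in 930 mutant cells. Cxcl16 had 6534 UMIs in 929 WT cells and 7275 in 1310 mutant cells. Scaled to the depth of each library, Cxcl9 differed most, with 192 CPM over all kept WT cells and 336 over all kept mutant cells (log2 ratio 0.81). Cxcr6 had 267 UMIs in 58 WT cells and 294 in 93 mutant cells. Cxcr3 had 48 UMIs in 35 WT cells and 70 in 51 mutant cells, of which 25 and 41 held a single UMI. Cxcr3 values therefore rest on few transcripts throughout.

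**Figure D1:**
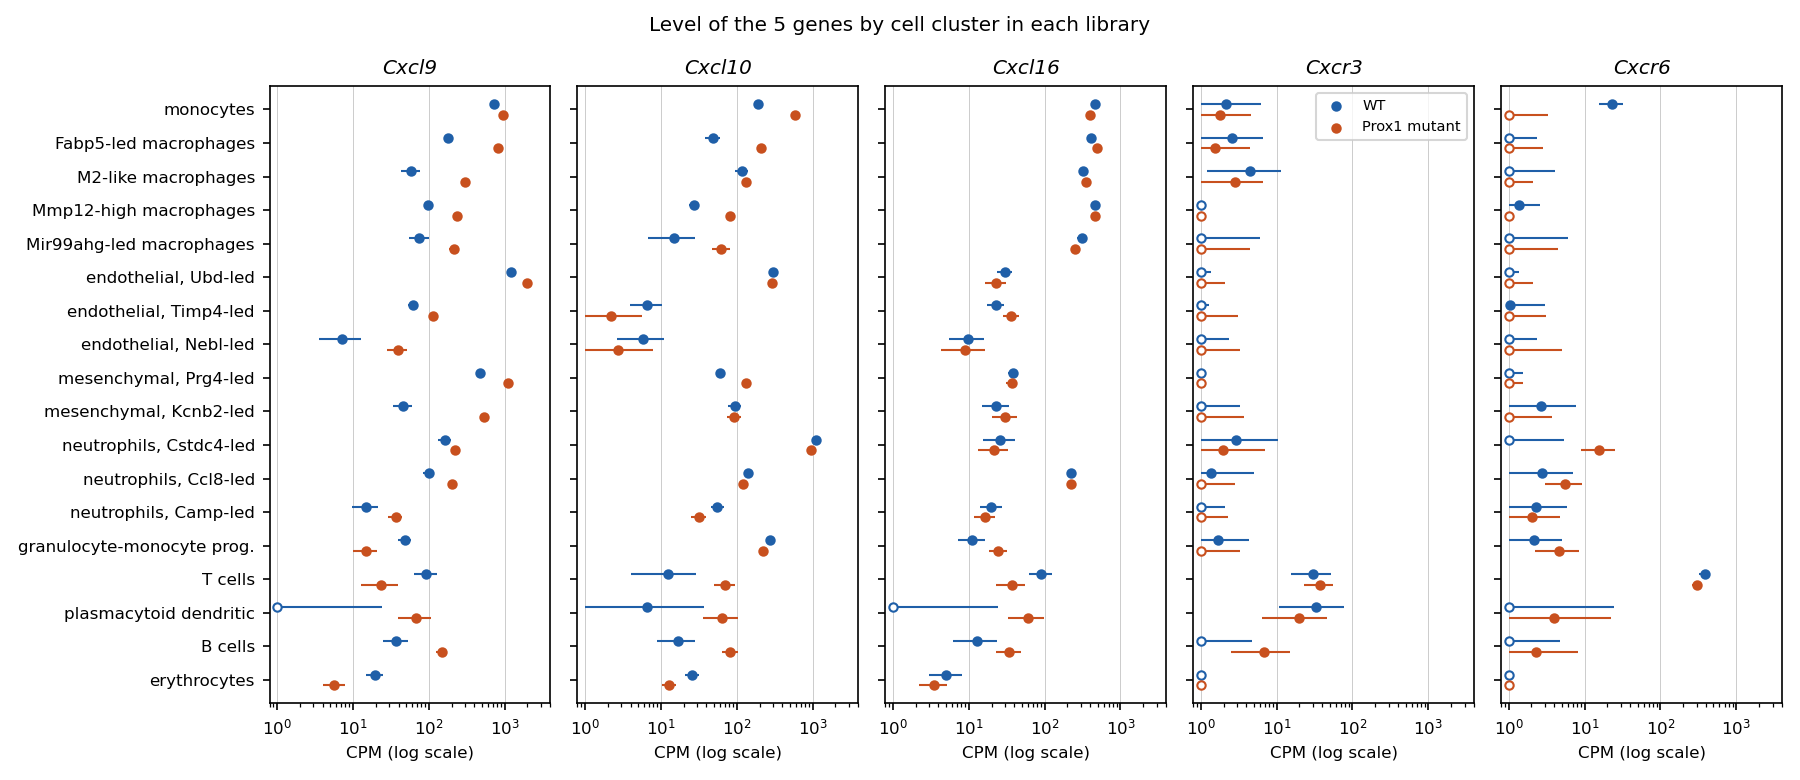
Level of each gene in 18 cell classes, in CPM on a log axis, with WT in blue and the Prox1 mutant in orange; bars are Poisson 95% intervals and open circles mark levels under 1 CPM, drawn at 1. Cxcl9 and Cxcl10 spread over myeloid, endothelial and mesenchymal classes, Cxcl16 stood between 254 and 496 CPM in the macrophage and monocyte clusters, and Cxcr6 stood at 384 and 301 CPM in T cells.

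Cxcl9 was carried mainly by 3 compartments in both libraries. Endothelial cells held 37.3% of its UMIs in WT and 20.2% in the mutant, mesenchymal cells held 24.4% and 24.6%, and macrophages with monocytes held 21.9% and 31.1%. In the WT library endothelial cells held the largest share of these, and in the mutant library macrophages with monocytes did. Endothelial cells made up 23.8% of the kept WT cells and 9.07% of the kept mutant cells, so these shares move with the cells recovered as well as with the level in each cell.

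Within the 3 named endothelial clusters, Cxcl9 was concentrated in a cluster led by Ubd, Selp and Sele, of which Selp and Sele encode the selectins that capture leukocytes on venules. In that cluster, of 176 WT and 94 mutant cells, Cxcl9 stood at 1213 CPM (1171 to 1255) in WT against 1966 CPM (1901 to 2033) in the mutant, and the log2 ratio of mutant to WT was 0.70 (0.63 to 0.77). A Cxcl9 UMI was found in 56.3% of these cells in WT and 63.8% in the mutant, and after each cell was thinned to 2000 UMIs in 37.7% and 47.9%. The cluster led by Timp4 and Gpihbp1, the second of which marks capillaries, stood far lower, at 62.3 CPM in WT and 115 in the mutant. The cluster led by Nebl, Gja5 and Sox17, genes of arterial endothelium, was lower still, at 7.13 and 38.9 CPM. Both libraries had the same order over these 3 clusters, with no overlap of intervals between neighbours. A shallow cluster led by Ctla2a and Plvap, with all 6 endothelial markers raised, stayed unnamed and is described under other observations. Its Cxcl9 level was also above those of the Timp4-led and Nebl-led clusters. The 7 macrophage markers summed to at most 64.7 CPM in the Ubd-led cluster of either library, against 3854 and 4334 CPM in macrophages and monocytes.

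In mesenchymal cells Cxcl9 was highest in the cluster led by Prg4, which encodes the joint lubricant lubricin, together with Clec3b and Pi16. It stood there at 473 CPM (454 to 493) in 245 WT cells against 1097 CPM (1063 to 1132) in 143 mutant cells, a log2 ratio of 1.21 (1.14 to 1.29). The cluster led by Kcnb2 and Inmt had 46.0 CPM in 131 WT cells and 541 CPM in 110 mutant cells, a log2 ratio of 3.56. A single mutant droplet with 237 of the 541 UMIs carried much of that value, and the log2 ratio was 3.13 without the top droplet of each library. Cxcl9 was thus higher in the mutant library in both mesenchymal clusters by more than counting error. The macrophage markers summed to 53.6 CPM in the Prg4-led cluster in both libraries.

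The phagocytes, 592 WT and 963 mutant cells, were reclustered into 9 clusters, and 5 of these, with 505 WT and 612 mutant cells, form the class called macrophages and monocytes here. The clusters left out were dendritic cells (9 WT and 20 mutant cells), a cluster with smooth muscle markers raised (8 and 13), a cluster with T cell markers raised (11 and 9), and a cluster led by Ngp that carried markers of several types. In the last, 5 neutrophil, 5 fibro-macrophage, 4 mesenchymal and 4 erythrocyte markers were raised. The fibro-macrophage list held matrix and contractile genes, namely Col1a1, Col1a2, Sparc, Acta2, Col3a1 and Fn1. This Ngp-led cluster held 59 WT cells and 309 mutant cells, with median depths of 11300 and 1373 UMIs, and Cxcl9 stood there at 104 and 446 CPM. Of the 5 clusters kept, monocytes were the highest for Cxcl9, at 725 CPM (681 to 771) in 91 WT cells against 951 CPM (911 to 993) in 122 mutant cells. The cluster named monocytes had 4 monocyte markers raised and also 4 of a list for interferon-responding cells, with Isg15 among its leading genes. The cluster led by Fabp5, a fatty-acid binding protein, stood at 180 CPM in 82 WT cells and 806 CPM in 129 mutant cells. Macrophages with the highest Mmp12, a matrix metalloproteinase, stood at 98.1 CPM in 194 WT cells and 237 CPM in 163 mutant cells. The cluster led by the noncoding gene Mir99ahg stood at 74.6 and 218 CPM in 72 WT and 113 mutant cells. M2-like macrophages, marked by the mannose receptor Mrc1 and by Folr2, stood at 57.6 and 303 CPM in 66 WT and 85 mutant cells. All 5 clusters were higher in the mutant library, with log2 ratios from 0.39 (0.28 to 0.50) in monocytes to 2.40 (1.98 to 2.84) in M2-like macrophages. Without the top droplet of each library the ratio was 2.92 in place of 2.16 in the Fabp5-led and 3.01 in the M2-like macrophages. Below monocytes and the Fabp5-led cluster, the Mmp12-high and Mir99ahg-led clusters had overlapping intervals in each library, as did the Mir99ahg-led and M2-like clusters in WT, while in the mutant M2-like macrophages stood above both.

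Over the whole class Cxcl9 stood at 184 CPM (177 to 193) in WT against 467 CPM (455 to 479) in the mutant, 2.53-fold higher, with a log2 ratio of 1.34 (1.27 to 1.41). The median log2 ratio of the 12449 genes with at least 20 UMIs in the class was 0.21, so Cxcl9 stood 1.13 above it. Cxcl9 and Cxcl10 were the members higher by a log2 ratio of at least 1 in this class, as were 8.06% of the genes tested. Over the other settings tried, the Cxcl9 ratio ran from 0.94 to 1.76 and that of Cxcl10 from 1.02 to 1.99. Whether Cxcl9 passed 1 thus depended on the processing. In the other direction Cxcr6 was lower by at least 1, as were 2.14% of the genes, and 26 of its 41 WT UMIs in the class were in 1 droplet described with the receptors. The neutrophil markers summed to 361 CPM in the WT class and 615 in the mutant class, and the part of neutrophil RNA in these levels was not tested. All 5 members passed the minimum of 20 UMIs in this class.

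**Figure D2:**
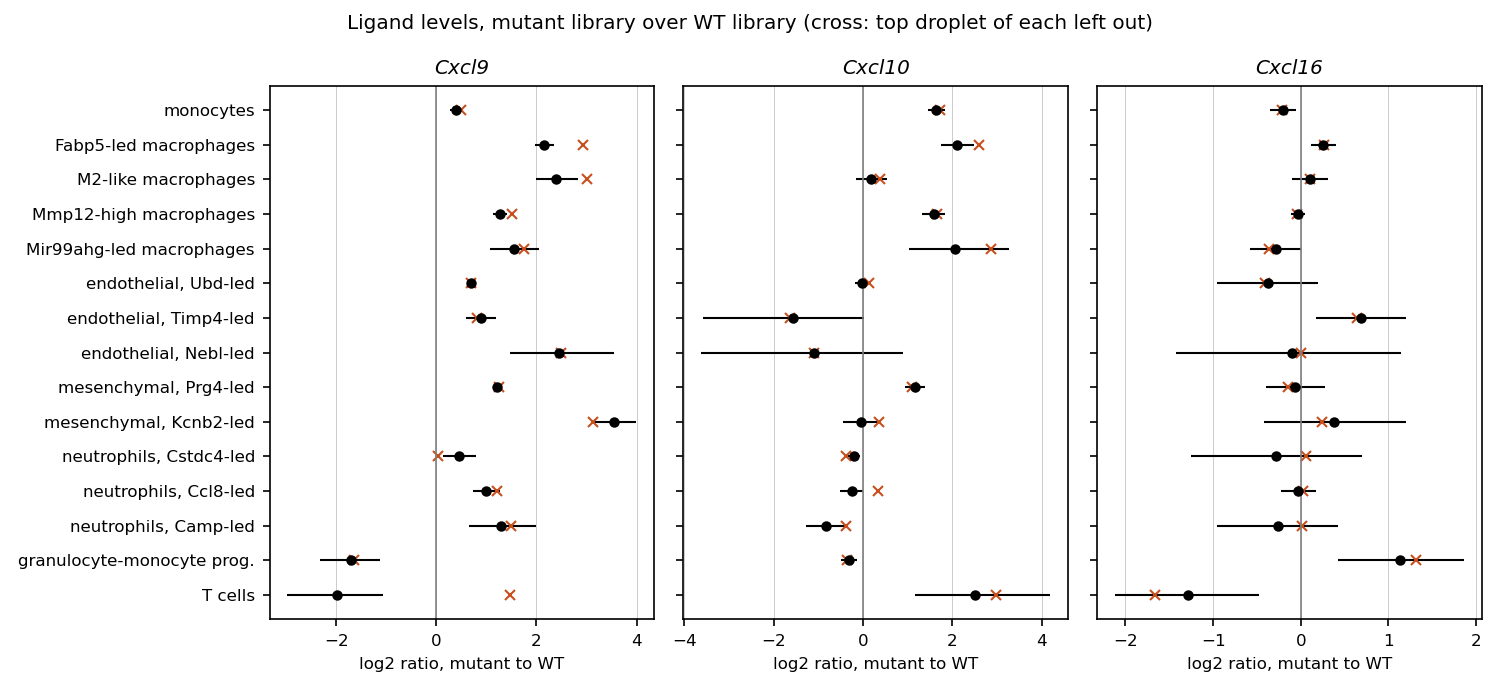
Log2 ratio of each ligand, mutant library to WT library, in 15 cell classes; bars are exact binomial 95% intervals (counting error only) and crosses give the ratio without the top droplet of each library. Cxcl9 lay above 0 in all macrophage, monocyte, endothelial and mesenchymal clusters shown, and Cxcl16 lay near 0 in the macrophage clusters.

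Cxcl9 was not higher everywhere. Of 19 classes with at least 20 cells in each library, the interval of the log2 ratio lay above 0 in 14, below 0 in 4 and across 0 in 1. The 14 include classes with low levels or few cells. Schwann cells stood at 2.20 CPM in WT and 10.3 in the mutant. Plasmacytoid dendritic cells and chondrocytes had 0 CPM in WT, and the median depths of chondrocytes were 32750 UMIs in WT and 3197 in the mutant. Most mutant UMIs of osteocytes were in 1 droplet. The smooth muscle cluster led by Actg2 had 533 CPM in 63 WT cells and 138 CPM in 34 mutant cells (log2 ratio -1.95), with 159 of its 298 WT UMIs in 1 droplet. Granulocyte-monocyte progenitors had 48.1 CPM in WT and 14.7 in the mutant (-1.71). T cells had 92.2 and 23.4 CPM, but 35 of the 37 WT UMIs were in 1 droplet and without the top droplets the log2 ratio turned from -1.98 to 1.48. Erythrocytes, which should lack the gene, were also among the classes below 0. They had 65 WT UMIs (19.5 CPM), 47 of them in 1 droplet, and 38 mutant UMIs (5.72 CPM). The share of erythrocytes with a Cxcl9 UMI was 4.55% of 308 WT cells and 5.51% of 653 mutant cells. Their median depths were 9160.5 and 9378 UMIs, and the shares were 1.34% and 0.97% after thinning. Shares in the Ubd-led endothelium, the Prg4-led mesenchymal cells and the monocytes were far above these.

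**Figure D3:**
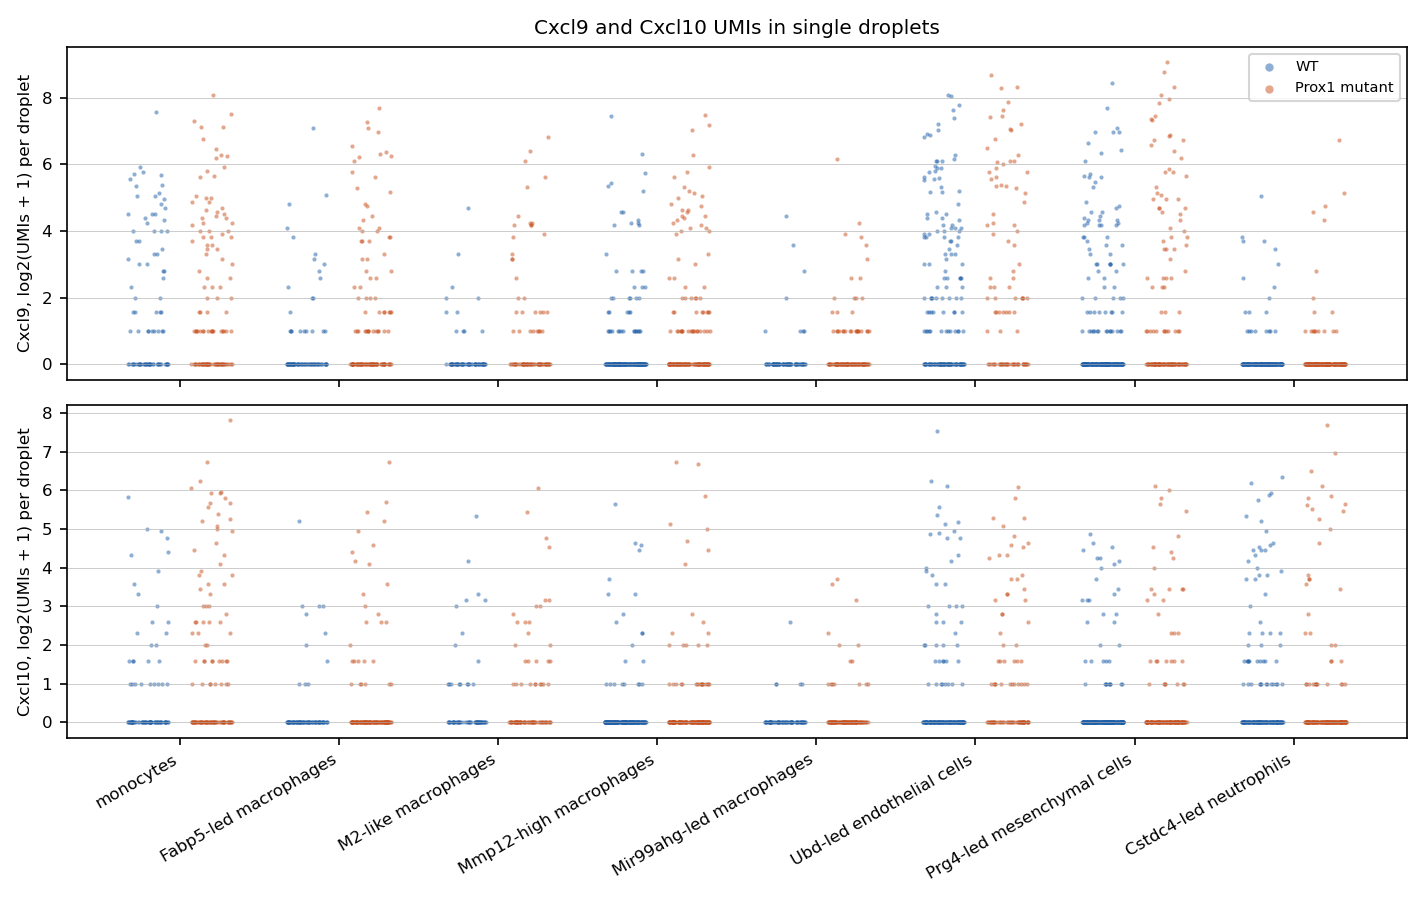
UMIs of Cxcl9 (top) and Cxcl10 (bottom) in single cells of 8 classes, as log2(UMIs + 1), with WT in blue and the mutant in orange; each point is 1 cell and the horizontal jitter has no meaning. Over the 8 classes together most cells sit at 0. A minority reach high counts, up to 534 Cxcl9 UMIs in a Prg4-led mesenchymal cell of the mutant library. Cxcl9 was present in most monocytes (52 of 91 WT, 74 of 122 mutant) and most Ubd-led endothelial cells (99 of 176 WT, 60 of 94 mutant).

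The Cxcl9 transcripts were unevenly spread over cells. The 37 WT cells and 52 mutant cells with the most Cxcl9 held 50% of its UMIs in their library. Cells with at least 20 Cxcl9 UMIs numbered 31 of 505 WT and 70 of 612 mutant macrophages and monocytes, 34 of 176 and 29 of 94 cells of the Ubd-led endothelium, and 23 of 245 and 31 of 143 Prg4-led mesenchymal cells. Among macrophages and monocytes with a Cxcl9 UMI, the median count was 4 in WT and 5 in the mutant, while the share of cells with a UMI was 27.9% in WT and 43.8% in the mutant. Thinned to 2000 UMIs per cell, those shares were 17.0% and 26.0%. The class difference thus lay in the share of cells with Cxcl9 and in the number of high cells, with a similar median count among positive cells.

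Cxcl10 followed another order of cells. Neutrophils and granulocyte-monocyte progenitors held 37.2% of its WT UMIs and 26.3% of its mutant UMIs, macrophages with monocytes held 13.9% and 35.2%, and endothelial cells held 18.3% and 7.48%. Its highest level was in neutrophils led by Cstdc4, Il1r2 and Cxcr2, the last of which is the receptor that draws mature neutrophils, at 1093 CPM (1017 to 1174) in 180 WT cells against 948 CPM (889 to 1010) in 170 mutant cells. The log2 ratio there was -0.21 (-0.34 to -0.07), and it turned to 0.28 when cells were thinned to 2000 UMIs and stood at -2.99 when 30 principal components gave a smaller cluster. A minority of these cells carried the level. A Cxcl10 UMI was found in 55 of the 180 WT cells and 38 of the 170 mutant cells, and 14 and 13 cells had at least 20. A single mutant cell held 205 of the 971 mutant UMIs. The 7 macrophage markers summed to 598 CPM in WT and 512 in the mutant in these neutrophils, below the 3854 and 4334 CPM of macrophages and monocytes. The neutrophils led by Camp and Ngp, genes of immature granules, stood at 55.9 and 31.6 CPM. Granulocyte-monocyte progenitors stood at 273 and 220 CPM (log2 ratio -0.31).

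In monocytes Cxcl10 stood at 190 CPM (168 to 214) in WT against 594 CPM (563 to 627) in the mutant, giving a log2 ratio of 1.64 (1.45 to 1.84). The Fabp5-led macrophages stood at 48.3 and 208 CPM, the Mmp12-high macrophages at 27.5 and 82.2 CPM, and the Mir99ahg-led macrophages at 14.9 and 62.6 CPM. M2-like macrophages had 116 CPM in WT and 133 in the mutant, and the interval of their log2 ratio, 0.19 (-0.15 to 0.54), spanned 0. Cxcl10 was therefore higher in the mutant library in 4 of the 5 clusters by more than counting error, and the Mir99ahg-led ratio went from 2.07 to 2.86 without the top droplets. For the class as a whole it stood at 57.6 CPM (53.2 to 62.3) in WT against 202 CPM (194 to 210) in the mutant, giving a log2 ratio of 1.81 (1.68 to 1.94), which is 1.60 above the median of all genes in the class. The ratio was 1.10 once likely doublets were removed and 1.02 among cells chosen by at least 3 UMIs of the C1q genes. The share of cells with a UMI was 16.8% in WT and 27.0% in the mutant, and 4.85% and 13.9% after thinning. In erythrocytes it was 5.19% and 8.88%, and 1.34% and 2.27% after thinning, so the thinned share in WT macrophages and monocytes was not far above that background. Outside the class, the thinned shares were 5.09% and 12.2% in the unnamed clusters and 7.5% and 13.4% in the Ngp-led phagocytes. These were above the class share in WT and just below it in the mutant. Only 97 of the 309 mutant Ngp-led cells were deep enough for thinning. The thinned share of the class was thus near that of unnamed or mixed cells in the mutant library too.

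In the Ubd-led endothelium, where Cxcl9 was higher in the mutant library, Cxcl10 stood at 299 CPM (279 to 321) in WT against 295 CPM (270 to 322) in the mutant, giving a log2 ratio of -0.02 (-0.18 to 0.14). The share of these cells with a Cxcl10 UMI was 26.7% in WT and 46.8% in the mutant, and 16.6% and 22.3% after thinning, against a level that did not differ beyond counting error, so no direction is read from it. In the Prg4-led mesenchymal cells it stood at 60.1 and 135 CPM, a log2 ratio of 1.16 (0.95 to 1.38). In the Kcnb2-led mesenchymal cells, which had the wider Cxcl9 ratio, Cxcl10 stood at 94.6 and 92.0 CPM. The intervals of both genes thus lay above 0 in the Prg4-led cells, the monocytes and the Fabp5-led, Mmp12-high and Mir99ahg-led macrophages, and that of Cxcl9 alone did in the Ubd-led endothelium, the Kcnb2-led cells and the M2-like macrophages. By a log2 ratio of at least 1, 3.82% of the 10570 genes tested in the Ubd-led endothelium were higher in the mutant library and 3.61% were lower, none of the 3 ligands was either, and the receptors had fewer than 20 UMIs there. In the Prg4-led cells 3.54% of 12099 genes were higher and 3.36% were lower, with Cxcl9 and Cxcl10 among the higher genes. Schwann cells went the other way for Cxcl10, with 118 CPM in 371 WT cells and 14.2 CPM in 161 mutant cells, and 196 of the 215 WT UMIs came from a cluster led by Fabp7. Over the 19 classes with at least 20 cells in each library, the interval for Cxcl10 lay above 0 in 9, below 0 in 5 and across 0 in 5. Some of the 9 rest on few cells. A single cell held 64 of the 72 mutant UMIs of B cells, and another held 30 of the 42 of T cells. The 16 mutant UMIs of plasmacytoid dendritic cells were in 2 cells. Chondrocytes had 0 and 72 UMIs at median depths of 32750 and 3197.

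At the level of broad types, the order of Cxcl10 in WT was granulocyte-monocyte progenitors and neutrophils, whose intervals overlapped, then monocytes, then Schwann cells, endothelial cells and M2-like macrophages, whose intervals overlapped. In the mutant it was monocytes, then adipocytes at 452 CPM in 180 cells, then neutrophils and granulocyte-monocyte progenitors with overlapping intervals. Of the 390 Cxcl10 UMIs of mutant adipocytes, 339 were in the 24 Car3-led cells (639 CPM). The 64 Mmp11-led cells had 42 (292 CPM) and the 92 Cfd-led cells had 9 (47.8 CPM). Adipocytes had 7 cells in WT, too few for a comparison. For Cxcl9 the order of broad types was monocytes, endothelial cells, mesenchymal cells and Fabp5-led macrophages in WT, with no overlap between neighbours. In the mutant, mesenchymal cells and monocytes overlapped at the top, and Fabp5-led macrophages overlapped with endothelial cells below them.

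Cells with 1 of the interferon-induced ligands more often held the other. At 2000 UMIs per cell, 11.9% (5.86 to 20.8) of WT macrophages and monocytes with a Cxcl9 UMI also had a Cxcl10 UMI, against 3.41% (1.87 to 5.65) of those without. In the mutant the shares were 32.9% (25.3 to 41.1) and 7.21% (4.92 to 10.1). The Ubd-led endothelium had 33.3% and 6.42% in WT, and 40% and 6.12% in the mutant. The Prg4-led mesenchymal cells had 16.7% and 2.05% in WT, and 19.5% and 8.82% in the mutant. In the macrophages and in the endothelium the intervals of the shares with and without Cxcl9 did not overlap in either library. In the mutant Prg4-led cells they overlapped. At 1000 and 5000 UMIs the macrophages and the WT endothelium again had no overlap. The mutant endothelium overlapped at 1000 UMIs (16.9 to 49.3 against 3.82 to 20.8). The Prg4-led cells changed with depth, with overlap in WT at 1000 and 5000 UMIs and none in the mutant at 5000 UMIs. Within monocytes alone, which had the highest levels of both genes in the class, the shares were 17.1% (7.15 to 32.1) and 6.00% (1.25 to 16.5) in WT, with overlapping intervals, and 46.9% (32.5 to 61.7) and 15.1% (7.77 to 25.4) in the mutant, without overlap. Most Cxcl9-positive cells had no Cxcl10 UMI at this depth in any of these classes.

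**Figure D4:**
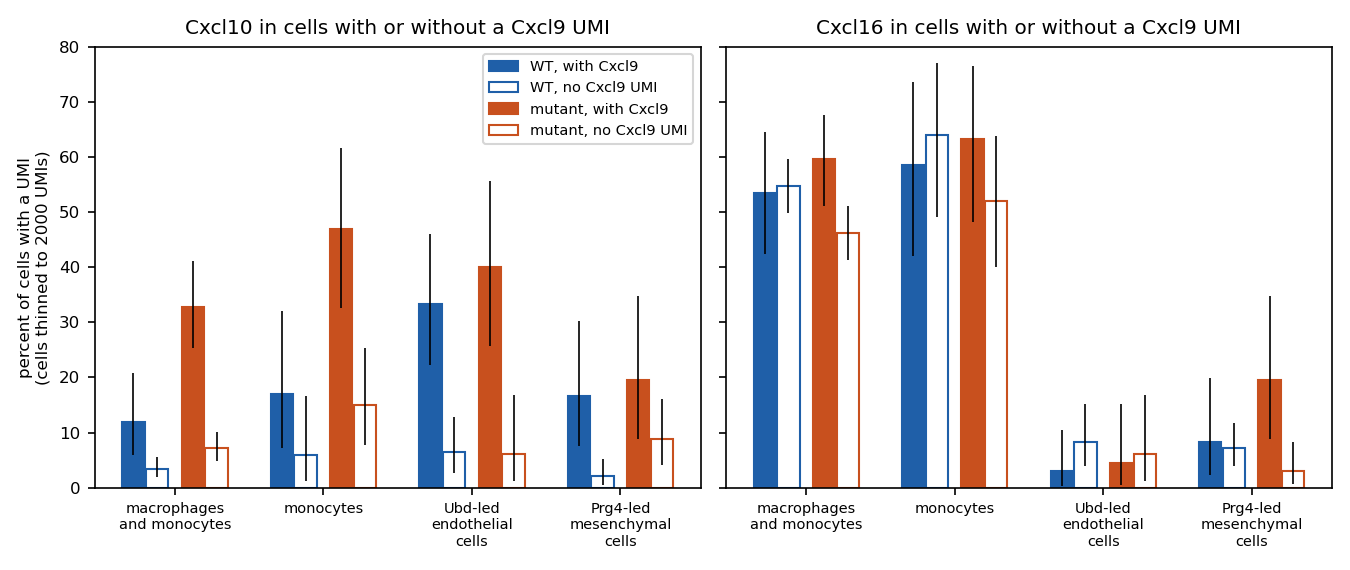
Share of cells with a Cxcl10 UMI (left) or a Cxcl16 UMI (right) among cells with a Cxcl9 UMI (filled bars) and without (open bars), each cell thinned to 2000 UMIs, with WT in blue and the mutant in orange; lines are Clopper-Pearson 95% intervals. Cxcl10 was more frequent in the Cxcl9-positive cells of each class shown, while in WT macrophages and monocytes Cxcl16 was at 53.6% with Cxcl9 and 54.7% without.

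Cxcl16 was a macrophage transcript in both libraries. Macrophages with monocytes held 73.8% of its UMIs in WT and 70.4% in the mutant, while they made up 11.6% and 10.6% of the kept cells. Its level in the class was 437 CPM (425 to 449) in WT against 422 CPM (410 to 434) in the mutant, giving a log2 ratio of -0.05 (-0.11 to 0.01), 0.26 below the median of all genes there. Single clusters ranged from 310 CPM in Mir99ahg-led to 465 CPM in Mmp12-high macrophages in WT, and from 254 CPM in Mir99ahg-led to 496 CPM in Fabp5-led macrophages in the mutant. Most of these cells had the transcript, with a UMI in 90.3% of the class in WT and 85.1% in the mutant and a highest count of 54 and 61 in a cell. Against Cxcl9 and Cxcl10, Cxcl16 was evenly spread, since it took 132 WT cells and 155 mutant cells to hold 50% of it.

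The difference between the genotypes for Cxcl16 was small in the 5 macrophage and monocyte clusters. Log2 ratios were 0.26 (0.11 to 0.40) in the Fabp5-led macrophages, 0.11 in the M2-like, -0.03 in the Mmp12-high and -0.29 in the Mir99ahg-led macrophages, and -0.21 (-0.35 to -0.06) in monocytes. Among cells thinned to 2000 UMIs, a Cxcl16 UMI was as frequent in WT macrophages and monocytes with Cxcl9 (53.6%, 42.4 to 64.5) as in those without (54.7%, 49.8 to 59.6), whereas in the mutant it was in 59.6% (51.2 to 67.6) and 46.2% (41.3 to 51.1). At 1000 UMIs the shares were 42.3% and 31.8% in WT, and 43.1% and 29.8% in the mutant. At 5000 UMIs they were 89.5% and 81.2% in WT, and 82.1% and 78.9% in the mutant. The contrast between the libraries thus changed with depth, and no difference is read from it. Cxcl16 stood at 29.7 and 22.9 CPM in the Ubd-led endothelium, at 38.2 and 36.7 CPM in the Prg4-led mesenchymal cells and at 89.7 and 36.8 CPM in T cells. The 64 mutant adipocytes of the Mmp11-led cluster had 181 CPM (118 to 265), and an unnamed cluster led by Igkc had 281 CPM in 11 WT cells and 97.4 CPM in 660 mutant cells. The neutrophils led by Ccl8 had 225 CPM in 49 WT cells and 220 CPM in 232 mutant cells, and 4 of the 7 macrophage markers were also raised in that cluster. Erythrocytes stood at 5.09 and 3.46 CPM.

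The Mmp12-high and M2-like macrophages were set against each other because they are the most distant of the macrophage clusters in Mmp12 and Mrc1. No cluster of the reclustered phagocytes could be named M1-like by the naming rule. Mmp12 stood at 3956 CPM in the Mmp12-high cells of WT and 53.2 in the M2-like cells, and Mrc1 at 7.44 and 1342 CPM. Cxcl16 was higher in the Mmp12-high cells in both libraries, with log2 ratios of 0.52 (WT) and 0.38 (mutant). Cxcl10 was lower in them in both, at -2.08 and -0.69, with values from -4.05 to -1.56 and from -1.66 to -0.61 over the other settings tried. For Cxcl9 the log2 ratio was 0.77 in WT and -0.36 in the mutant, and the WT direction turned with the resolution of the reclustering, to -0.48 at resolution 1.0, where the mutant value was -1.0.

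Of the receptors, Cxcr6 was found mainly in T cells. This class, a cluster of 47 WT and 85 mutant cells in which all 7 T cell markers were raised, held 57.7% of Cxcr6 UMIs in WT and 61.2% in the mutant, while they were 1.08% and 1.48% of the kept cells. Of the 6 NK markers 5 were raised in the same cluster, and they summed to 1044 and 1077 CPM, so it holds T and NK cells together. Macrophage markers summed to 1036 CPM in it in WT and 227 in the mutant, and their part in the values for T cells was not tested.

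Cxcr6 stood at 384 CPM (325 to 449) in WT T cells, with 154 UMIs in 25 of 47 cells, and at 301 CPM (259 to 348) in mutant T cells, with 180 UMIs in 37 of 85 cells. The log2 ratio was -0.35 (-0.67 to -0.03), and over all kept cells it was -0.03. The ratio was -0.02 among all cells with at least 2 UMIs of Cd3d, Cd3e, Cd3g and Trac, the genes of the T cell receptor complex, so its distance from 0 depended on how the cells were chosen. The share of T cells with a UMI was 53.2% (38.1 to 67.9) in WT against 43.5% (32.8 to 54.7) in the mutant, and 50% and 34.7% at 2000 UMIs per cell, with overlapping intervals. In erythrocytes it was found in none of 308 WT cells, where 3 counts would be 0.90 CPM, and in 1 mutant cell of 653. A log2 ratio of at least 1 was reached by 8.41% of 6587 genes in T cells in the direction of the mutant and by 7.17% in the other. Neither receptor reached it, and of the ligands in that cluster Cxcl10 was higher, with 5 and 42 UMIs, and Cxcl9 and Cxcl16 were lower. All of these ligand values rest on few cells. Of the 42 mutant Cxcl10 UMIs, 30 were in 1 cell. Most WT Cxcl9 UMIs of the cluster were in 1 droplet, and the Cxcl9 ratio changed sign without the top droplets. For Cxcl16, 1 cell held 20 of the 36 WT UMIs and another held 14 of the 22 mutant UMIs.

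Within the cluster Cxcr6 went with the T cell receptor. Of cells with a UMI of Cd3d, Cd3e or Cd3g, 21 of 24 in WT and 26 of 46 in the mutant had a Cxcr6 UMI, against 4 of 23 and 11 of 39 of cells without, which were shallower (median 1771 and 2726 UMIs against 7464.5 and 7521.5). Cells with Cd4 and no Cd8 had Cxcr6 in 13 of 13 cases in WT and 11 of 17 in the mutant. Cells with a gene of the gamma delta receptor (Trdc, Trgv2 or Tcrg-C1) had it in 7 of 14 and 16 of 23. Cells with the NK receptor genes Ncr1 or Klrb1c had it in 1 of 6 and 0 of 12. Cells with Cd8a or Cd8b1 had it in 2 of 4 and 6 of 12. Cxcr6 was thus frequent in the Cd4, Cd8 and gamma delta gates of both libraries and rare in the NK gate. Counts were small in the Cd8 and NK gates.

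**Figure D5:**
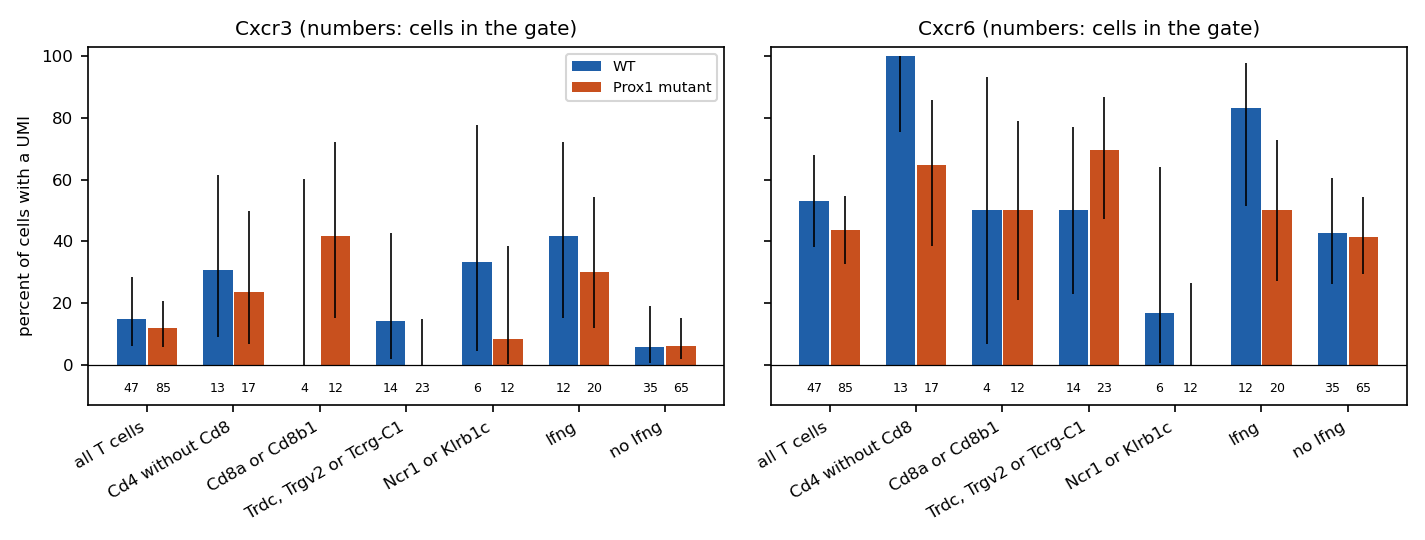
Share of cells with a Cxcr3 UMI (left) or a Cxcr6 UMI (right) in the T cell cluster and in gates set by UMIs of other genes, with WT in blue and the mutant in orange; lines are Clopper-Pearson 95% intervals and the numbers under the bars are cells. Cxcr6 reached 13 of 13 WT cells in the gate with Cd4 and without Cd8, and Cxcr3 reached 5 of 12 mutant cells in the gate with Cd8.

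Cxcr3 had 12 UMIs in 7 WT T cells and 22 UMIs in 10 mutant T cells, which is 29.9 CPM (15.4 to 52.2) and 36.8 CPM (23.1 to 55.7). The log2 ratio was 0.30 (-0.78 to 1.45), so no difference was detectable at this depth. Plasmacytoid dendritic cells were the other class with a level above 15 CPM, with 5 UMIs in 20 WT cells (33.0 CPM) and 5 UMIs in 25 mutant cells (19.9 CPM), and their intervals overlapped those of T cells. Erythrocytes had 0 UMIs in 308 and 653 cells, where 3 counts per library would be 0.90 and 0.45 CPM. Of all Cxcr3 UMIs, 25.0% were in T cells in WT and 31.4% in the mutant. Macrophages with monocytes held as many in WT, 12 UMIs (25.0%), and 13 (18.6%) in the mutant, and the other phagocyte clusters held 9 and 3. Neutrophils with granulocyte-monocyte progenitors held 8 and 7, and the unnamed clusters 2 and 12. B cells had 0 UMIs in 147 WT cells and 6 in 119 mutant cells, 4 of them in 1 cell. In the gates, Cxcr3 was found in 4 of 13 WT and 4 of 17 mutant cells with Cd4 and in 0 of 4 and 5 of 12 cells with Cd8a or Cd8b1.

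Most of the few T cells with a Cxcr3 UMI also had a Cxcr6 UMI. These cells were not thinned to a common depth, and the part of depth in this overlap was not tested. In WT 5 cells had both receptors, 2 had Cxcr3 alone, 20 had Cxcr6 alone and 20 had neither. In the mutant 8 had both, 2 had Cxcr3 alone, 29 had Cxcr6 alone and 46 had neither. The cells that made Ifng, the cytokine that induces the CXCR3 ligands, lay in the same cluster, which held 79.1% of 258 Ifng UMIs in WT and 80.1% of 291 in the mutant. Of the Ifng-positive T cells, 10 of 12 in WT and 10 of 20 in the mutant had Cxcr6, and 5 of 12 and 6 of 20 had Cxcr3. Of the Ifng-negative T cells, 15 of 35 and 27 of 65 had Cxcr6, and 2 of 35 and 4 of 65 had Cxcr3. Ifng-positive cells were deeper (median 15599.5 and 9712.5 UMIs) than the others (2594 and 3273). In CPM the order for Cxcr6 was the opposite, with 333 and 269 CPM in Ifng-positive cells and 458 and 331 CPM in the others, so no order is read from these shares.

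Some phagocyte droplets carried Cxcr6 together with T cell genes. A WT monocyte droplet held 26 Cxcr6 UMIs, the highest count of any cell, and with them 78 UMIs over 6 of the 7 T cell markers, 115 UMIs of the C1q genes of macrophages and 43029 UMIs in all. It supplied 26 of the 41 Cxcr6 UMIs of the WT macrophage and monocyte class. A small phagocyte subcluster of 11 WT and 9 mutant cells, kept out of that class because its 7 T cell markers were raised, held 36 Cxcr6 UMIs in WT and had a median of 41185 UMIs per cell there. In the mutant library neutrophils and granulocyte-monocyte progenitors held 45 of the 294 Cxcr6 UMIs. Of these, 16 were in the Cstdc4-led neutrophils, in 2 of 170 cells, and 15 of the 16 were in 1 droplet.

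The genes around these axes were taken from lists drawn up by known role, with earlier results of these data known. In macrophages and monocytes 68.3% of the 12449 genes tested were above 0, with a median of 0.21, and the counts below stand beside that background. All 13 transcription factors and brakes of the interferon response were above 0 there, with a median log2 ratio of 0.50, and none reached 1. Irf1, which acts on the promoters of both ligands, stood at 153 CPM in WT and 226 in the mutant (log2 ratio 0.57, 0.48 to 0.65). Of 20 other interferon-induced genes with at least 20 UMIs, 18 were above 0 and 4 reached 1, with a median of 0.48. Among all genes tested in the class 8.06% reached 1. Those 4 were the guanylate-binding protein gene Gbp5 (1.03), the immunity-related GTPase gene Irgm2 (1.10), Oasl1 (1.13) and Ciita, the master regulator of MHC class II (1.10). The lowest was Gbp4, at -0.20. Against these, the log2 ratios of Cxcl9 (1.34) and Cxcl10 (1.81) in the class were higher than that of each of the 20. This order is given for the main processing only, and over the other settings tried the Cxcl9 ratio went as low as 0.94.

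On the input side, 9 of 11 genes with enough UMIs were above 0 in the same class, none reached 1 and the median was 0.34, where 68.3% of all genes tested were above 0 with a median of 0.21. The receptor chain Ifngr1 stood at 101 and 140 CPM (0.47) and its kinase Jak2 at 114 and 183 CPM (0.68). Il18, a cytokine that drives interferon-gamma release, stood at 18.8 and 36.3 CPM (0.95). Ifng itself had 16 and 5 UMIs in the class. The proteases that shed CXCL16 were measured in the same cells, with Adam10 at 107 CPM in WT and 138 in the mutant (0.37) and Adam17 at 219 and 285 CPM (0.38), beside a Cxcl16 ratio of -0.05. Dpp4, a protease that trims CXCL9 and CXCL10, was low, at 1.36 and 3.62 CPM (1.42). Of the 6 genes that signal below the receptors, all were above 0 and none reached 1, with a median of 0.28, near the 0.21 of all genes. Of 13 lymphocyte genes with enough UMIs in the class, 6 were lower by at least 1, among them Cd3d, Cd3e and Cd3g, beside 2.14% of all genes tested. The droplet with 26 Cxcr6 UMIs was in the WT class.

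In the Ubd-led endothelium the other interferon-induced genes summed to a higher level than in the macrophages, the T cells or the Prg4-led cells, at 6722 CPM in WT and 6364 in the mutant. Of these genes 9 of 21 were above 0, near the 48.9% of all 10570 genes tested there, with a median of -0.03 against -0.01. Ciita reached 1 there and Ifit1 and Oasl1 were lower by at least 1, beside 3.82% and 3.61% of all genes. Ackr1, the venular chemokine-binding receptor that does not signal, stood at 279 CPM in WT and 143 in the mutant (log2 ratio -0.97, -1.18 to -0.76) in this cluster. In the Prg4-led mesenchymal cells 8 of 20 induced genes were above 0, beside 51.5% of all 12099 genes tested there, with a median of -0.09 against 0.01. Gbp4, Ifit1, Ifit3 and Oasl1 were lower by at least 1, as were 3.36% of all genes. Cxcl9 and Cxcl10 were higher by at least 1 in this cluster, as were 3.54% of all genes. In T cells 2 of 16 induced genes were higher by at least 1, Iigp1 and Rsad2, and Ifit1 was lower by at least 1. Of all genes tested in T cells 8.41% were higher and 7.17% lower by at least 1. Ifng stood at 508 CPM in WT T cells and 390 in mutant T cells (-0.38, -0.66 to -0.11). Il17a, a cytokine of gamma delta and Th17 cells, stood at 274 and 115 CPM (-1.25), and Cd8a and Cd8b1 were higher in the mutant T cells (1.95 and 1.59).

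The genes with levels most like those of each member were sought across 26 cell classes in both libraries, 52 points in all, by the Pearson correlation of log2(CPM + 5). The points share their libraries, so the values are descriptions. Cxcl10 was nearest to Gbp5 (0.83), Ifi47 (0.80) and Gbp2 (0.79), followed by Rtp4 and Ifitm3. Cxcl9 was nearest to Ehd1, Ifi211, Phf11d and Il18bp (0.77 each) and Dtx3l (0.76), and its correlation with Cxcl10 was 0.66. Cxcl16 was nearest to Slamf8 (0.94), Cd300c2, Ms4a6d, P2ry6 and Csf1r, the last of which is the receptor on which macrophages depend. Cxcr6 was nearest to Zap70 (0.96), Cd3g, Trdc, Cd3d and Sh2d2a, and Cxcr3 to Cd4, Cd5 (0.86 each), Tex2 and Cd28. Cxcr3 rested on few UMIs in all classes.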

How the data were processed

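Per the labels, cells were freed from the TMJ with collagenase I and Dispase II, passed through a 70 um filter and captured with 10x 3′ chemistry, with no sort. The labels name the v2 kit and the study's methods v3.1, and the methods name another collagenase. The deposited values are raw UMI counts, which the authors made with Cell Ranger 7.0.1 on mm10, as the submitters' processing notes give them. Doublet removal before deposit is not given in the sources used here.

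The members and all lists were chosen with earlier results of these data known. Cells were filtered as the study's methods state, normalised with sctransform 0.4.2, integrated by anchors in Seurat 5.3.0 (200 principal components, resolution 1.5, the members left out), and phagocytes were reclustered on 30 components at resolution 0.5. A cluster could take a name when at least 3 markers of a list were raised. Raised meant 2-fold above the pooled level of the other cells clustered with it, with 5 CPM added to both, and found in at least 10% of its cells. Such a cluster still stayed unnamed if markers of another lineage led it or if markers of another lineage were raised nearly as much. It also stayed unnamed if it was shallow and none of its own markers led. The lists used at each stage, the Mmp12-high, Selp, Pi16 and Cxcr2 cluster rules and the make-up of the macrophage class were settled after clusters were seen. Doublets stayed in, and an alternative without the droplets that Scrublet (scanpy 1.11.5) scored highest removed 239 WT and 462 mutant cells, since its automatic threshold marked 0. Counts were summed with Python 3.11.15, numpy 2.4.6, pandas 2.3.3 and scipy 1.17.1, and ratios have exact binomial intervals. Thinning drew 2000 UMIs per cell and left out shallower cells. The genes named were the members, the pathway lists, and the 5 genes most correlated with each member. Some genes under this rule are not reported here. The ratio and interval code was tested on simulated counts.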

Additional observations from a re-analysis of the deposited data

How the results depend on the processing

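Of the recomputed log2 ratios, 105 moved by less than their counting error, 53 moved by more and 2 reversed. With 1 library per genotype none was left out. No paired analysis was possible because each genotype has 1 library and the result comes from no test. Depth limits Cxcr3 most. The composition of the macrophage class, all phagocyte clusters together, and the endothelial, mesenchymal and neutrophil results were added after seeing the data.

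For Cxcl9 in macrophages and monocytes (1.34), the ratio was 1.43 under a looser cell filter (200 genes, 20% mitochondrial), 1.22 under a stricter filter (1000 genes, 5%), 1.03 with doublets removed, 1.47 with the libraries merged without integration, 1.25 at resolution 0.5, 1.12 with the C1q gate, 1.41 without the top droplet, 0.94 as the mean of per-cell CPM, 0.96 after thinning to 2000 UMIs, 1.76 without monocytes and 1.06 without Mmp12-high macrophages. For Cxcl10 there (1.81) it was 1.10 with doublets removed, 1.68 merged, 1.27 with 30 principal components, 1.02 with the C1q gate, 1.48 as the per-cell mean, 1.99 thinned, 1.53 over all phagocyte clusters, 1.58 without monocytes and 1.54 without Mmp12-high macrophages. For Cxcl16 there (-0.05) it was -0.16 with the C1q gate and -0.14 thinned. All of these kept their direction.

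For Cxcr6 in T cells (-0.35) the ratio was -0.90 merged, -0.016 with the T cell receptor gate and -0.72 thinned, and for Cxcr3 it ranged from 0.06 to 0.66. For Cxcl9 in the Ubd-led endothelium (0.70) it was 0.93 thinned. For Cxcl9 in the Prg4-led mesenchymal cells (1.21) it was 1.33 with 200 genes, with resolution 0.5 and with the members kept among the features, and 1.35 with 1000 genes. For Cxcl10 in the Cxcr2-high neutrophils (-0.21) it was -0.41 merged, -2.99 with 30 components, -0.39 without the top droplet and reversed to 0.28 thinned. The cause was not tested.

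For Mmp12-high against M2-like macrophages, Cxcl9 in WT (0.77) was 0.11 at resolution 0.5, reversed to -0.48 with reclustering at resolution 1.0 and was 1.25 without the top droplet. In the mutant (-0.36) it was -0.52 with 200 genes, -0.71 with 1000 genes, -0.83 with doublets removed and merged, -0.86 at resolution 0.5, -0.63 with the members kept and -1.0 with reclustering at 1.0. Cxcl10 in WT (-2.08) was -1.66 with doublets removed, -4.05 with reclustering at 1.0, -1.67 as the per-cell mean and -1.56 thinned. In the mutant (-0.69) it was -1.18 merged, -1.01 with the members kept, -1.57 with reclustering at 1.0, -1.10 as the per-cell mean and -1.66 thinned. Cxcl16 (0.52 and 0.38) was 1.0 and 0.83 thinned. The cause was not tested.

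Of Cxcl9-positive macrophages, 27.4% had Cxcl10 at 5000 UMIs in WT (11.9% at 2000) and 20.7% at 1000 UMIs in the mutant (32.9% at 2000). Of the shares of a gene's UMIs, 55 moved by less than counting error and 43 by more. Macrophages held 20.4 to 23.8% of Cxcl9 in WT and 24.6 to 32.0% in the mutant, 12.5 to 23.2% and 33.1 to 37.6% of Cxcl10, and 67.1 to 85.9% and 64.2 to 72.5% of Cxcl16. T cells held 50.6 to 58.2% and 55.4 to 71.9% of Cxcr6.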

Other observations

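Cxcl9 and Cxcl10 were also found in cells that entered no comparison. A cluster led by Ctla2a and Plvap, in which all 6 endothelial markers were raised but which stayed unnamed for its shallow cells (median 1363 UMIs in WT and 1836 in the mutant), had Cxcl9 at 731 CPM (625 to 849) in 102 WT cells against 936 CPM (840 to 1041) in 127 mutant cells. Cxcl10 stood there at 64.1 and 51.4 CPM, with 15 and 19 UMIs. Adipocytes of the Car3-led cluster, fat cells that express Adipoq, had Cxcl9 at 1031 CPM in 6 WT cells and 794 CPM in 24 mutant cells, and Cxcl10 at 243 and 639 CPM. These cells were too few for a comparison between the libraries.

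Chondrocytes, the cells of cartilage, had 0 UMIs of either gene in 29 WT cells, where 3 counts would be 3.22 CPM, and 40 Cxcl9 UMIs (69.9 CPM) and 72 Cxcl10 UMIs (126 CPM) in 104 mutant cells. WT chondrocytes had a median depth of 32750 UMIs and mutant chondrocytes 3197. Osteocytes, the cells embedded in bone, had 6 Cxcl9 UMIs in 30 WT cells and 167 in 21 mutant cells, of which 129 were in 1 droplet.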
